A study of Mus musculus with 5 samples.

Results

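The genes described here are 37 genes of the integrated stress response and its output: 17 that encode the transcription factor ATF4, its partners and targets, or enzymes and carriers of amino acid supply, and 20 that encode cytosolic aminoacyl-tRNA synthetases. They were chosen by name, as the non-control probes whose gene symbol in the scanner tables is one of these 37, with the probe of highest mean signal standing for a gene. All 37 were found, among 31829 gene names and on 45 of the 39429 non-control probes of the array, and 8 of them had 2 probes. Of the 5 arrays, 3 held RNA of MIN6 cells given EXO-HP, and 2 held RNA of MIN6 cells given EXO-STD. EXO-HP are exosomes, small vesicles shed by cells, that high fat diet mouse muscle released ex vivo, and EXO-STD are those released by muscle after a standard diet. MIN6, a mouse insulinoma line that secretes insulin, serves as a model of the beta cell. The sources used here give no age or strain of the mice, number of muscle donors, vesicle dose or treatment time, and no array held cells without vesicles. Titles name biological replicates, but no source states that cultures or vesicle preparations were separate, and the p-values therefore cover only the spread between these samples, which may be technical in part.

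In the integrated stress response, kinases that sense uncharged tRNA, misfolded protein, haem shortage or double-stranded RNA phosphorylate the translation factor eIF2. General protein synthesis then slows, while the mRNA of ATF4 is translated more. ATF4 pairs with C/EBP proteins and other bZIP factors on composite DNA elements and raises transcription of genes for amino acid synthesis, amino acid import and tRNA charging, and of factors that amplify or end the response. Beta cells, which make large amounts of proinsulin in the endoplasmic reticulum, are known to depend on the eIF2 kinase PERK.

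Of 10 beta cell markers, both insulin genes included, 10 were well above background on all 5 arrays. The alpha cell markers Gcg and Irx2 were also well above background on all 5. Of 9 skeletal muscle markers, 5 were so on all 5 arrays, and the 7 that were tested had positive differences (median 0.51). Differences were also positive for 3 of 3 tested acinar markers (median 0.72), 4 of 4 macrophage markers (0.25), 3 of 4 fibroblast markers (0.43), 8 of 10 beta cell markers (0.20) and 1 of 3 endothelial markers (-0.03). Over all tested probes, 62.8% of differences were positive. Mylpf, Ckm, Cpa1, Dcn, Lum and Cdh5 were well above background on 2 or more EXO-HP arrays but on fewer EXO-STD arrays. They entered the test through EXO-HP alone, which favours a positive difference, and the counts and medians above include them. No marker passed after adjustment, and the part of these shifts in the values below was not tested. By layout, EXO-HP replicates 2 and 3 were together on slide 2 (scan 2), while EXO-HP replicate 1 was on slide 1 (scan 1) with both EXO-STD arrays. Spots well above background made up 74.0%, 91.6% and 81.6% of EXO-HP arrays 1, 2 and 3, against 73.4% and 71.8% of EXO-STD arrays 1 and 2. Signals are given as log2 intensity minus the array's 75th percentile, so that 0 is that percentile, and differences as EXO-HP minus EXO-STD. Every one of the 37 genes was well above background on all 5 arrays, so none owed its place to a filter on dim probes, and no spot was saturated.

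Of the 29 genes with a RefSeq promoter window in the table used here, 10 carried a composite element of the type that ATF4 and C/EBP factors bind. The windows are 300 bases long (250 before and 50 after the start site, GRCm38.p6), and the motif searched was TGATGNAA on either strand, which reads TTNCATCA on the other. It was present in windows of 34.5% of these 29 genes, against 4.51% of all 27025 genes with a window, and it occurred in 5 of 13 synthetase genes and 5 of the 16 other genes. Matches from most of these genes are given, to show where the element sits, 5′ to 3′ on the strand of the gene, with the motif in capitals and 10 bases on each side. The stress response genes come first and the synthetases after them.
Atf3 (chr1:191183426-191183453, minus strand): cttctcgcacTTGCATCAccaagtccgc
Trib3 (chr2:152344029-152344056, minus strand): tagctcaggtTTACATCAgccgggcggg
Chac1 (chr2:119351039-119351066, plus strand): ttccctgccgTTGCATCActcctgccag
Gars (chr6:55037961-55037988, plus strand): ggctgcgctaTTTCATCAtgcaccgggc
Iars (chr13:49682127-49682154, plus strand): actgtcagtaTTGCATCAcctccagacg
Tars (chr15:11399656-11399683, minus strand): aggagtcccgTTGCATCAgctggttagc
Yars (chr4:129189896-129189923, plus strand): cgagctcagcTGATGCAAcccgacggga
The motif lay close to the start site in Asns (-23 to -16), though nearer in others such as Tars (-15 to -8) and Yars (4 to 11). It lay farther off in Chac1 (-193 to -186). Slc7a11 held a pair of matches in opposite orientation, and Aars, not printed, a pair in the same orientation. For Asns and Slc7a11 the 250 bases before the start site are shown, to place the motif in its promoter.
Asns (chr6:7693210-7693459, minus strand): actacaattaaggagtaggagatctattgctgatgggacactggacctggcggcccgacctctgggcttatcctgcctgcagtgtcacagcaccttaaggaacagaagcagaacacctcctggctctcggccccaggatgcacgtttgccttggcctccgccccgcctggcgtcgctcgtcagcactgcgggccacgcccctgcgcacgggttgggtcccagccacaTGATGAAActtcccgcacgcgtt
Slc7a11 (chr3:50443614-50443863, minus strand): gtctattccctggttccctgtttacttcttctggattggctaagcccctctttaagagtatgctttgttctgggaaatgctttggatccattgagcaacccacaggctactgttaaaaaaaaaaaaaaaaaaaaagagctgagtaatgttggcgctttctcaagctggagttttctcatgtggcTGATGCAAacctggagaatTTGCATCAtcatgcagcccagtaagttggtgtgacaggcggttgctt
A match describes the letters in this window and says nothing of binding in MIN6 cells.

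None of the 37 genes passed the test between EXO-HP and EXO-STD cells. With limma and Benjamini-Hochberg adjustment over all probes, 0 of 37 had an adjusted p under 0.05, as had 0% of the 31943 probes tested, and the smallest adjusted p among them was 0.978, for Vars. At an unadjusted p under 0.05 there was also 0 of 37, against 5.60% of all probes tested. Without a slide term, the differences ran from -0.32 (Nars) to 0.42 (Phgdh). With slide as a block they ran from -0.45 (Trib3) to 0.32 (Rars). As slide 2 held EXO-HP arrays only, each difference with slide as a block is EXO-HP replicate 1 alone minus the EXO-STD arrays. The median difference without a slide term was 0.004, beside 0.08 over all tested probes and 0.07 over all tested genes. There were 20 genes with a positive difference and 17 with a negative difference (54.1% positive, against 62.3% of all tested genes). With median scaling of the arrays in place of the 75th percentile the all-probe median was -0.10, and the split was then 6 positive and 31 negative. Relative to the all-probe median the 37 genes stood at -0.07 with the 75th percentile, -0.04 with normexp background, 0.03 with quantile normalization and 0.04 in the deposited value table. With the 75th percentile and only the probes well above background on all 5 arrays, they stood at -0.04.

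How far a change can be bounded depended on the fit. Without a slide term, the 95% interval of 31 of 37 genes (83.8%) lay within 2-fold in either direction, against 62.2% of all tested probes. All tested probes include dim ones. In a fit of only the probes well above background on all 5 arrays, as the 37 genes are, the interval did so for 35 of 37, against 78.7% of probes. With slide as a block it did so for 20 of 37, against 29.8% of probes, and Atf4 (-0.36 ± 0.37), Psat1 (-0.41 ± 0.40) and Chac1 (-0.23 ± 0.43) were then among those whose interval reached past 2-fold. It did so for 18 without EXO-STD replicate 1 and 20 without EXO-STD replicate 2. Without a slide term, the 6 genes whose interval reached past 2-fold were Trib3 (-1.06 to 0.50), Nars (-1.07 to 0.43) and Rars (-1.05 to 0.56) on the lower side, and Phgdh (-0.25 to 1.09), Psph (-0.96 to 1.11) and Tars (-0.64 to 1.12) on the upper. The number of arrays limits this precision. With a 1-sided p doubled, the smallest p that exact permutation of the 5 arrays allows is 0.2.

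**Figure D1:**
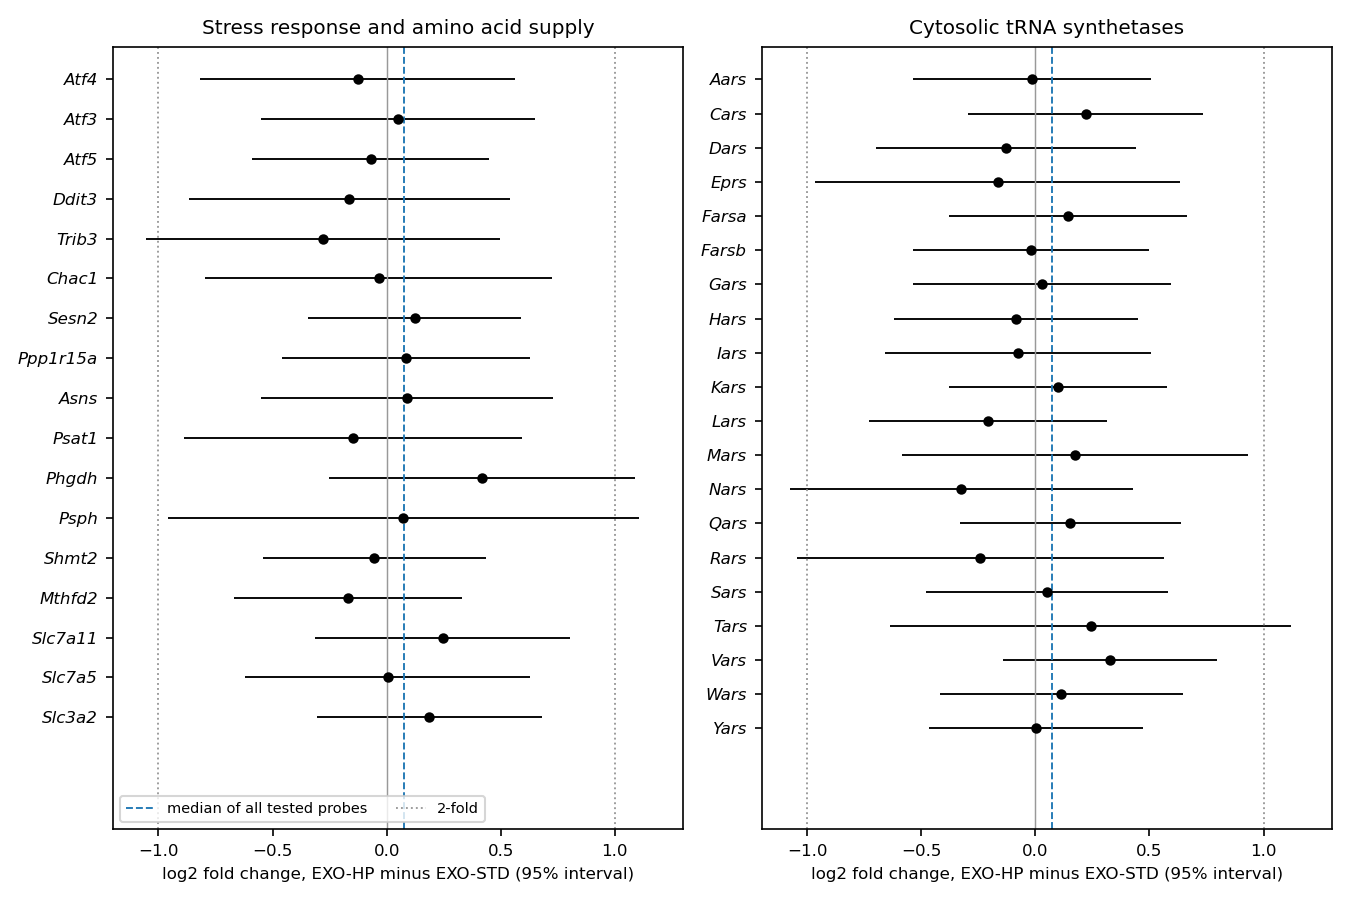
Log2 fold change, EXO-HP minus EXO-STD, of each of the 37 genes with its 95% interval from limma (n = 3 and 2 arrays). The dashed line is the median of all tested probes (0.08) and dotted lines mark 2-fold; every interval spans 0, and 31 of 37 stay within 2-fold in this fit without a slide term.

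Atf4 itself, the transcription factor at the centre of the response, read 5.82, 6.41 and 5.93 on the EXO-HP arrays, against 6.40 and 5.96 on the EXO-STD arrays. The groups overlapped, with EXO-HP replicate 2 level with EXO-STD replicate 1 and the other 3 arrays close together below them. Its difference was -0.13 ± 0.28 (SE), with adjusted p = 1.00 in limma as for each gene of this paragraph. Since ATF4 is controlled mainly at translation, its mRNA level is only a partial view of its activity. Ddit3, which encodes the pro-apoptotic factor CHOP, read 0.28, 0.36 and -0.21 on the EXO-HP arrays, against 0.56 and 0.05 on the EXO-STD arrays, a difference of -0.16 ± 0.28. Trib3, a pseudokinase that restrains ATF4 and AKT signalling, read 2.25, 2.66 and 2.37 on the EXO-HP arrays, against 3.12 and 2.29 on the EXO-STD arrays. EXO-STD replicate 1 stood above the other 4 arrays, and the difference was -0.28 ± 0.31 overall. Chac1, which degrades glutathione, read 2.42, 2.91 and 2.53 on the EXO-HP arrays, against 3.02 and 2.28 on the EXO-STD arrays, a difference of -0.04 ± 0.31. EXO-HP replicate 2 and EXO-STD replicate 1 were again the highest arrays.

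Atf3, an early stress-induced bZIP factor, read -1.34, -0.80 and -1.03 on the EXO-HP arrays, against -1.01 and -1.21 on the EXO-STD arrays, a difference of 0.05 ± 0.24. Atf5, a related factor with translational control like that of ATF4, read 5.33, 5.42 and 5.47 on the EXO-HP arrays, against 5.65 and 5.29 on the EXO-STD arrays and differed by -0.07 ± 0.21. In both genes the groups overlapped. Ppp1r15a, the GADD34 subunit that directs a phosphatase to eIF2 and so ends the response, read 1.05, 1.10 and 1.46 on the EXO-HP arrays, against 1.13 and 1.11 on the EXO-STD arrays. Only EXO-HP replicate 3 stood apart, and the difference was 0.09 ± 0.22. Sesn2, a leucine sensor that restrains mTORC1, read 1.81, 1.77 and 1.77 on the EXO-HP arrays, against 1.75 and 1.57 on the EXO-STD arrays. All 3 EXO-HP arrays lay above both EXO-STD arrays by a narrow margin, and the difference was 0.12 ± 0.19 (-0.05 with median scaling). Of the 8 regulators and effectors, 3 had a positive and 5 a negative difference, with a median of -0.05.

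Asns, the asparagine synthetase gene and a classical ATF4 target, read 5.12, 5.50 and 5.39 on the EXO-HP arrays, against 5.52 and 4.98 on the EXO-STD arrays. Its difference was 0.09 ± 0.26, and EXO-STD replicate 1 and EXO-HP replicate 2 were the highest arrays. The serine pathway was measured through its 3 enzymes. Phgdh, which commits a glycolytic intermediate to serine synthesis, read -1.78, -1.13 and -1.54 on the EXO-HP arrays, against -1.75 and -2.06 on the EXO-STD arrays. EXO-HP replicates 2 and 3 lay above both EXO-STD arrays and EXO-HP replicate 1 lay between them, giving 0.42 ± 0.27 (limma, adjusted p = 1.00), and 0.12 with slide as a block. The next enzyme, Psat1, read 2.95, 3.55 and 3.14 on the EXO-HP arrays, against 3.67 and 3.05 on the EXO-STD arrays, a difference of -0.15 ± 0.30. Psph, which performs the last step, read 1.86, 2.74 and 2.29 on the EXO-HP arrays, against 2.75 and 1.70 on the EXO-STD arrays, a difference of 0.07 ± 0.41. The EXO-STD arrays of Psph differed from each other by 1.04, more than those of any other of the 37 genes, and its EXO-HP arrays lay between them or level with the higher one. Shmt2, the mitochondrial enzyme that passes a carbon of serine to folate, read 2.25, 2.23 and 2.10 on the EXO-HP arrays, against 2.36 and 2.13 on the EXO-STD arrays, and its groups overlapped (-0.05 ± 0.20). Mthfd2, which acts after it in the mitochondrial folate cycle, read 1.64, 1.39 and 1.39 on the EXO-HP arrays, against 1.71 and 1.57 on the EXO-STD arrays. EXO-HP replicates 2 and 3 lay below both EXO-STD arrays, EXO-HP replicate 1 between them, and the difference was -0.17 ± 0.20. Across these 6 enzymes 3 differences were positive and 3 negative.

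The 3 transporter genes had positive differences, from 0.00 to 0.25. Slc7a11, the cystine-glutamate exchanger xCT, read -5.45, -5.66 and -5.20 on the EXO-HP arrays, against -5.76 and -5.60 on the EXO-STD arrays, a difference of 0.25 ± 0.22 that turned to -0.39 with quantile normalization. Slc3a2, the heavy chain that xCT and the leucine carrier share, read 3.77, 3.77 and 3.62 on the EXO-HP arrays, against 3.66 and 3.41 on the EXO-STD arrays. EXO-HP replicate 3 lay just below EXO-STD replicate 1, and the difference was 0.19 ± 0.20. Slc7a5, the leucine carrier LAT1, read 1.01, 1.13 and 0.66 on the EXO-HP arrays, against 1.13 and 0.72 on the EXO-STD arrays, a difference of 0.00 ± 0.25 that was negative in 3 of 4 other scalings. None of the 3 had groups that did not overlap.

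**Figure D2:**
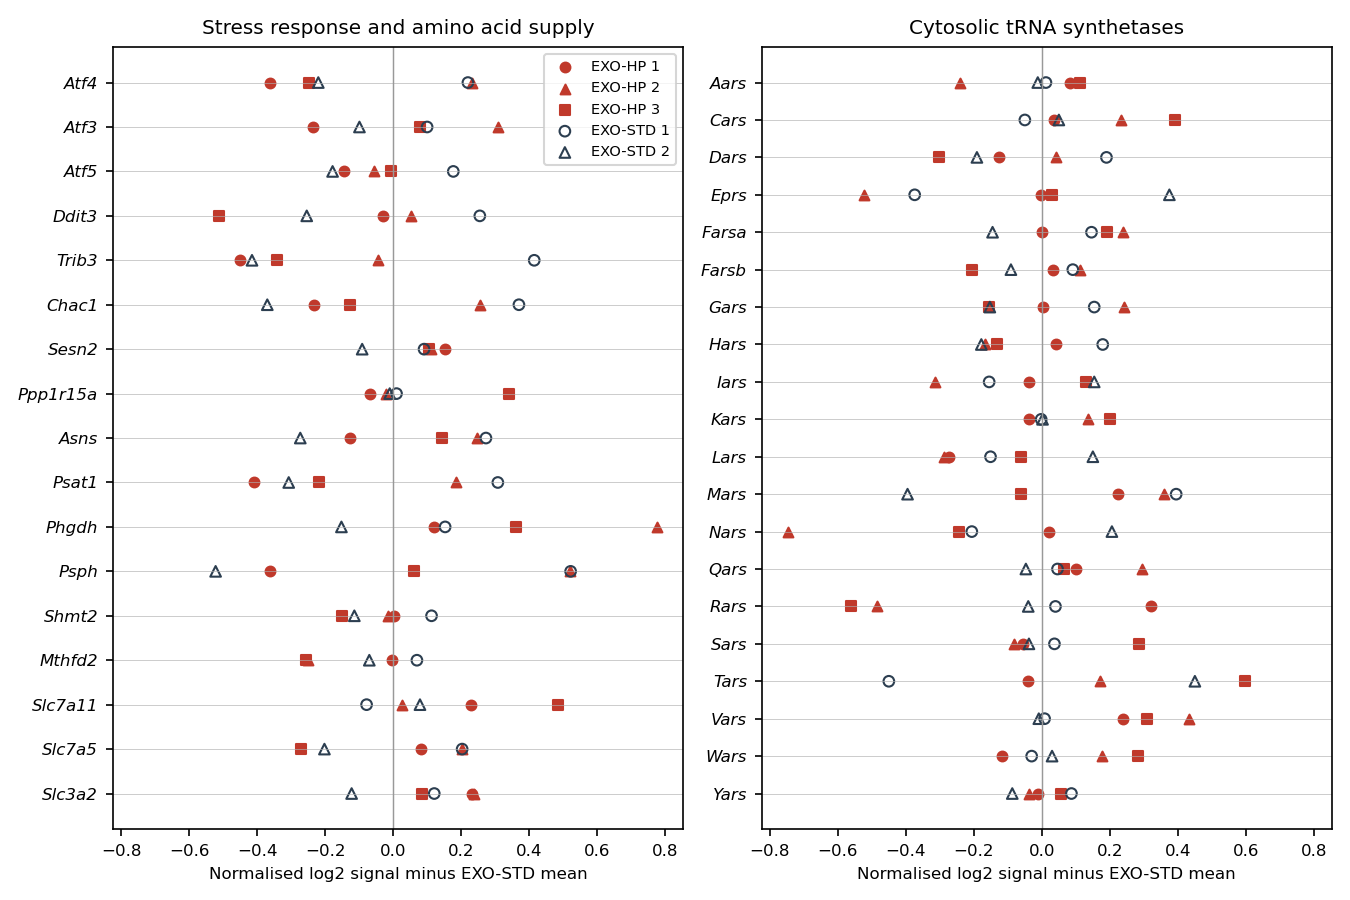
Normalised log2 signal of each of the 37 genes on each array, minus the mean of the 2 EXO-STD arrays. Filled red marks EXO-HP and open dark marks EXO-STD. The shape marks the replicate number, which is not known to pair samples. The EXO-STD circle lies right of the EXO-STD triangle in 16 of the 17 genes on the left, and the groups do not overlap only for Sesn2, Qars and Vars.

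Aminoacyl-tRNA synthetases load each tRNA with its amino acid, and many of the cytosolic ones are induced by ATF4. Of the 20, 11 had a positive and 9 a negative difference, with a median of 0.02 and a range from -0.32 to 0.33. Vars, the valine enzyme, read 2.05, 2.24 and 2.12 on the EXO-HP arrays, against 1.82 and 1.80 on the EXO-STD arrays. All EXO-HP arrays lay above both EXO-STD arrays, and the difference of 0.33 ± 0.19 had the smallest p of the 37 genes (limma, adjusted p = 0.978). Qars, the glutamine enzyme, read 2.51, 2.70 and 2.47 on the EXO-HP arrays, against 2.45 and 2.36 on the EXO-STD arrays, with a difference of 0.15 ± 0.19 that was -0.02 with median scaling. Its EXO-HP arrays also lay above both EXO-STD arrays. Altogether the EXO-HP arrays lay above both EXO-STD arrays for 3 of the 37 genes (Sesn2, Vars and Qars), against 15.1% of all tested probes, and below both for 0 of 37, against 2.76%.

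Nars, the asparagine enzyme, read 2.53, 1.76 and 2.26 on the EXO-HP arrays, against 2.30 and 2.72 on the EXO-STD arrays. EXO-HP replicate 2 was the lowest array, EXO-HP replicate 1 lay between the EXO-STD arrays, and the difference was -0.32 ± 0.30, against -0.11 without EXO-HP replicate 2 and 0.02 with slide as a block. Lars, the leucine enzyme, read 3.17, 3.15 and 3.38 on the EXO-HP arrays, against 3.29 and 3.59 on the EXO-STD arrays, a difference of -0.21 ± 0.21, with EXO-HP replicate 3 between the EXO-STD arrays. Rars, the arginine enzyme, read -0.83, -1.64 and -1.71 on the EXO-HP arrays, against -1.11 and -1.19 on the EXO-STD arrays. Here EXO-HP replicate 1, on slide 1, was above both EXO-STD arrays, whereas EXO-HP replicates 2 and 3, on slide 2, were below both (-0.24 ± 0.32, and 0.32 with slide as a block). Cars, the cysteine enzyme, read 3.53, 3.73 and 3.89 on the EXO-HP arrays, against 3.44 and 3.54 on the EXO-STD arrays, a difference of 0.22 ± 0.21, and EXO-HP replicate 1 fell within the EXO-STD range. Tars, the threonine enzyme, read 2.89, 3.099 and 3.53 on the EXO-HP arrays, against 2.48 and 3.38 on the EXO-STD arrays, a difference of 0.24 ± 0.35 across EXO-STD arrays that were 0.90 apart. It was -0.21 without EXO-STD replicate 1, 0.69 without EXO-STD replicate 2 and -0.04 with slide as a block. Farsa, the catalytic subunit of the phenylalanine enzyme, read 1.46, 1.70 and 1.66 on the EXO-HP arrays, against 1.61 and 1.32 on the EXO-STD arrays (0.14 ± 0.21), and Farsb, its partner subunit, differed by -0.02 ± 0.21. Differences of the remaining 11 synthetases lay between -0.17 ± 0.32 (Eprs, the bifunctional glutamate and proline enzyme) and 0.17 ± 0.31 (Mars, the methionine enzyme), each with adjusted p = 1.00. The probes of Mars (chr10:126733940-126733999, minus strand) and Ddit3 (chr10:126732518-126732821, plus strand) lie 1118 bases apart on opposite strands of mm9.

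**Figure D3:**
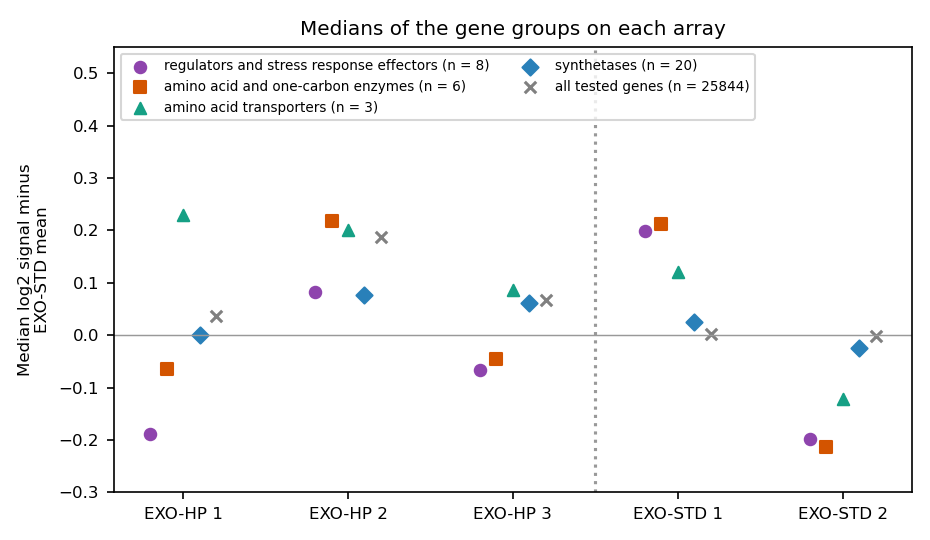
Median normalised log2 signal, relative to the EXO-STD mean, of the genes in each group on each array (n genes in the legend). Regulators and enzymes stand at 0.20 and 0.21 on EXO-STD 1 and at -0.20 and -0.21 on EXO-STD 2, while the synthetases stand within 0.08 of 0 on all 5 arrays.

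The EXO-STD arrays differed from each other in the stress response and amino acid supply genes by more than the groups did. EXO-STD replicate 1 was above EXO-STD replicate 2 for 16 of these 17 genes (94.1%), all except Slc7a11, against 49.7% of all tested probes, and for 12 of 20 synthetases. The median absolute gap between the EXO-STD arrays was 0.36 in the 17 genes, beside a median absolute group difference of 0.12. Over all tested probes these medians were 0.36 and 0.17, so the gap in the 17 genes was of the size seen over the array. Among EXO-HP arrays, replicate 2 was the highest for 11 of the 17 genes, against 49.5% of all probes. The synthetases were divided on the same array, which was the highest of the EXO-HP arrays for 7 and the lowest for 8, Nars, Eprs, Iars and Aars among them. What set these arrays apart was not tested.

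The direction of the group difference turned on which EXO-STD array was used. Without EXO-STD replicate 1, 16 of the 17 stress response and supply genes had a positive difference, and without EXO-STD replicate 2, 5 of 17 did. The all-probe median difference was positive in both fits (0.117 and 0.095). With 2 EXO-STD arrays, the shift between these fits is set by the gap between those arrays and is not a separate result. For Trib3 the values were 0.14 without EXO-STD replicate 1 and -0.69 without EXO-STD replicate 2, and for Psph they were 0.60 and -0.45. The synthetases moved less, with 13 of 20 positive without EXO-STD replicate 1 and 9 of 20 without EXO-STD replicate 2. Within slide 1, where EXO-HP replicate 1 can be set against both EXO-STD arrays, 16 of the 37 differences were positive, with a median of -0.004. The differences there equal those with slide as a block. The regulators had a median of -0.19 there, the enzymes -0.07, the transporters 0.23 and the synthetases 0.00. This fit has 1 EXO-HP array and 1 residual degree of freedom, and 0 of the 37 genes passed in it, as against 94 of all 31943 probes. Slide 2 held EXO-HP arrays only and gives no comparison of its own.

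Another probe was present for 8 of the genes, and it gave the opposite sign in 3 (Psat1, Psph and Aars). The probes of Atf4 gave -0.13 ± 0.28 and 0.00 ± 0.33, those of Psat1 -0.15 ± 0.30 and 0.23 ± 0.30, those of Psph 0.07 ± 0.41 and -0.24 ± 0.42, and those of Aars -0.02 ± 0.21 and 0.31 ± 0.24. None of these probes passed the test. Slc7a5 showed the widest gap between its probes. The probe that does not stand for the gene (chr8:124430996-124431055, mm9) read -1.30, -1.08 and -0.97 on the EXO-HP arrays, against -1.56 and -1.79 on the EXO-STD arrays. All EXO-HP arrays lay above both EXO-STD arrays at this probe, and the difference of 0.56 ± 0.21 (95% interval 0.03 to 1.09) had an adjusted p of 0.890 in limma. The probe that stands for the gene (chr8:124405136-124405195) gave 0.00 ± 0.25, so the value for Slc7a5 depends on the probe. Phgdh, Farsa and Wars had probes of the same sign.

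**Figure D4:**
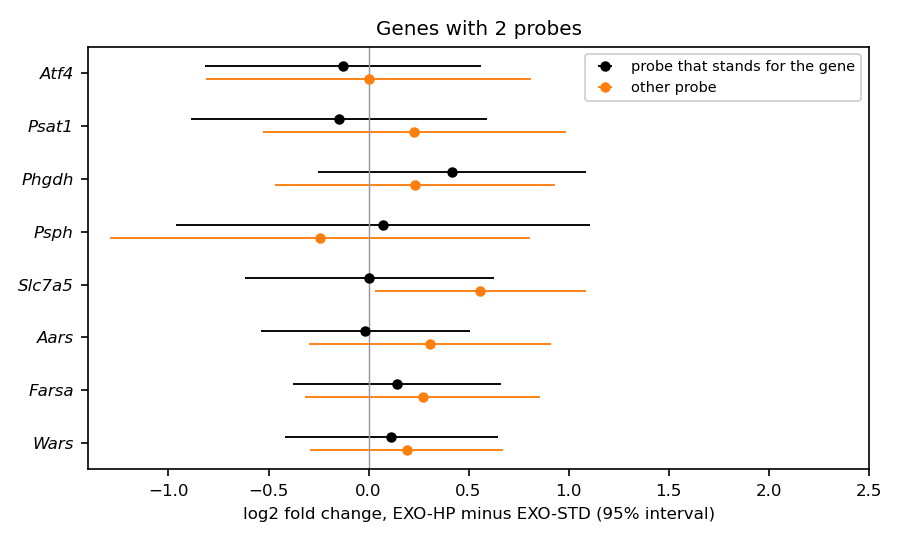
Log2 fold change, EXO-HP minus EXO-STD, with its 95% interval for both probes of the 8 genes that have 2 (black, the probe of highest mean signal; orange, the other). The interval of 1 of the 16 probes, the other one of Slc7a5, does not reach 0, and its adjusted p is 0.890.

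Differences were similar in range for genes with and without the composite element in the window. The 10 with a match had a median difference of 0.02, from -0.28 (Trib3) to 0.25 (Slc7a11), with 6 positive and 4 negative. The 19 whose windows held no match had a median of 0.05, from -0.17 to 0.42. The Slc7a11 and Asns windows printed above thus belong to genes with differences of 0.25 and 0.09, and those of Chac1 and Atf3 to genes with -0.04 and 0.05.

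A list of genes upstream of ATF4 also held no called gene. It covers the eIF2 kinases, the GCN2 regulators Gcn1l1 and Impact, and subunits of eIF2 and of its exchange factor eIF2B. The list also holds the phosphatase subunit Ppp1r15b and the initiation factor Eif2a. Of its 16 genes, 8 had a positive and 8 a negative difference (median -0.01). Eif2ak1, the haem-regulated kinase, had the smallest p and read -1.13, -1.52 and -1.29 on the EXO-HP arrays, against -1.33 and -2.54 on the EXO-STD arrays. EXO-STD replicate 2 stood below the other 4 arrays, and the difference was 0.63 ± 0.39. Eif2b1, an eIF2B subunit, differed by 0.38 ± 0.27, and Gcn1l1, the activator of the kinase GCN2, by 0.29 ± 0.21.

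Further ATF4 targets had mostly negative differences, none of which passed. Of 28, 7 had a positive and 21 a negative difference, with a median of -0.09, beside 16105 positive and 9739 negative and a median of 0.07 over all tested genes, and 0 passed (0 at an unadjusted p under 0.05, smallest adjusted p 0.930). Fgf21, a secreted hormone of amino acid shortage, read -2.79, -3.45 and -3.60 on the EXO-HP arrays, against -3.80 and -4.07 on the EXO-STD arrays. Its EXO-HP arrays all lay above both EXO-STD arrays, and the difference was 0.65 ± 0.31 (limma, adjusted p = 0.930). Ero1l, an oxidase of the endoplasmic reticulum, differed by -0.39 ± 0.24, and Vldlr, a lipoprotein receptor, by -0.31 ± 0.22. The EXO-HP arrays of Vldlr lay below both EXO-STD arrays.

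The partners of the synthetases gave values of the same size. Of the 3 scaffold proteins of the multi-synthetase complex, Eef1e1 read -0.01, 0.14 and -0.18 on the EXO-HP arrays, against 0.39 and 0.19 on the EXO-STD arrays, with all EXO-HP arrays below both EXO-STD arrays (-0.31 ± 0.21). Aimp1 and Aimp2, the other two, differed by -0.07 ± 0.18 and 0.17 ± 0.38. Among 17 mitochondrial synthetases, 7 differences were positive and 10 negative, with a median of -0.04 and 0 passing. Tars2, the mitochondrial threonine enzyme, had the smallest p and read 2.24, 2.32 and 2.22 on the EXO-HP arrays, against 2.56 and 2.39 on the EXO-STD arrays, a difference of -0.21 ± 0.19 with groups that did not overlap. Yars2, the mitochondrial tyrosine enzyme, differed by -0.28 ± 0.31 (limma, adjusted p = 1.00).

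**Figure D5:**
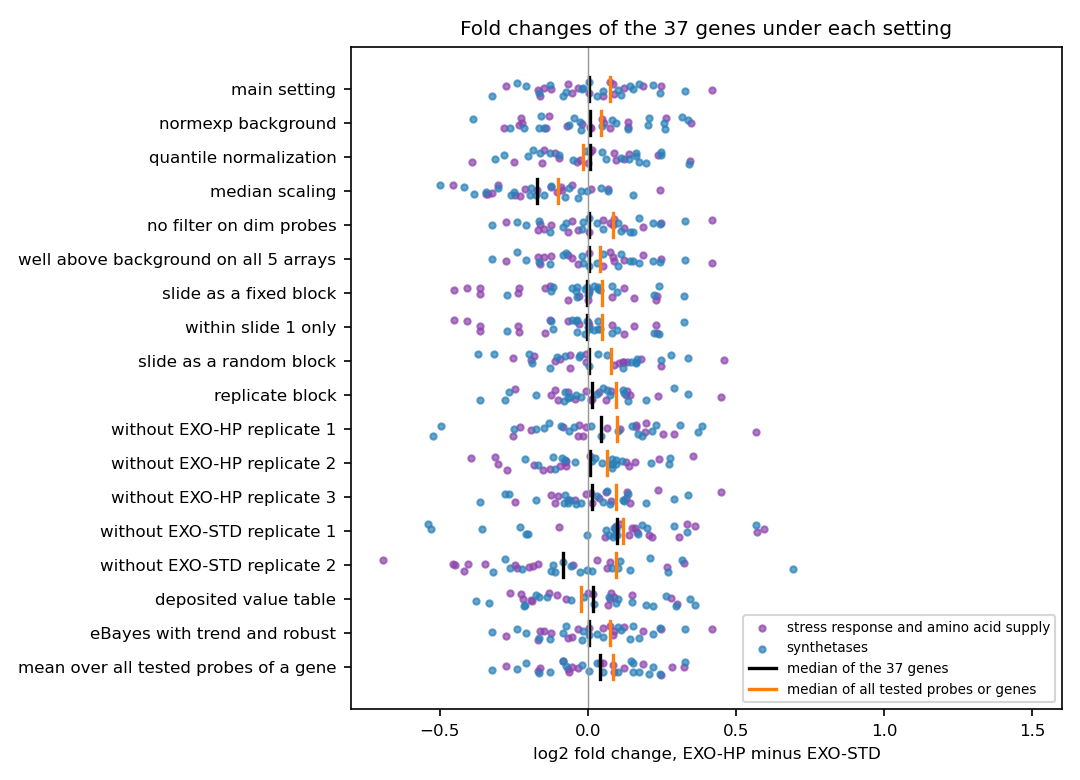
Log2 fold change, EXO-HP minus EXO-STD, of the 37 genes under the main setting and 17 alternatives (purple, stress response and amino acid supply; blue, synthetases; black bar, their median; orange bar, median of all tested probes or genes). The median stays between -0.17 (median scaling) and 0.10 (without EXO-STD replicate 1), and 0 of 37 genes passed in any of them.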

How the data were processed

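RNA of 5 MIN6 samples was hybridised to 1-colour Agilent arrays, 1 per sample, and grouped by the labels. Per the file headers, Feature Extraction 10.7.3.1 made the spot intensity values, with background subtraction and detrending, and probe positions are mm9. The submitters' processing notes name Feature Extraction 9.1 and limma. The deposited value table holds log2 values with a median of 7.93 on each array, per the deposited table itself, and was used as an alternative. Here, outlier spots were dropped, spots of a probe averaged, and log2 processed intensity centred on each array's 75th percentile. A probe was tested where 2 or more arrays of either group had it well above background (31943 of 39429 probes) with limma 3.58.1 in R 4.3.3, without covariates, with Benjamini-Hochberg adjustment over all probes and a threshold of 0.05. The script was tested on simulated data. Genes are represented by their probe of highest mean signal. Per-array values are given for all 17 stress response and supply genes, the 8 synthetases of smallest p, and up to 3 genes of smallest p are named from each list of related genes. The members and all lists were chosen with earlier results of these data known. Scaling, background, filter, slide, replicate block and left-out arrays were varied. Promoter sequences are from RefSeq (GRCm38.p6); Slc7a5, Cars, Hars, Lars, Nars, Rars, Vars and Wars were not matched. Some items of the lists are not reported here.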

Additional observations from a re-analysis of the deposited data

How the results depend on the processing

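In all 17 alternatives 0 of 37 genes passed limma's adjusted threshold and 0 had an unadjusted p under 0.05; the smallest adjusted p of a member ranged from 0.560 to 1.00. Among all probes, 94 passed within slide 1 only, where 1 residual degree of freedom remains, and 0 to 3 with each array left out. Slide as a block and slide 1 only gave the same differences, so these alternatives are not separate estimates. Median scaling gave a median of -0.17 for the 37 genes and -0.16 for the synthetases. With each array left out, the median ranged from -0.084 (without EXO-STD replicate 2) to 0.10 (without EXO-STD replicate 1) for the 37 genes, from -0.015 to 0.085 for the synthetases and from -0.20 to 0.16 for the stress response and supply genes. Replicate numbers are shared by the groups for numbers 1 and 2 only. The deviations of same-numbered arrays correlated at 0.03 and -0.06 across probes. The deviations of the 2 EXO-STD arrays from their mean mirror each other, so these correlations cannot decide whether the numbers mark a pairing. With the replicate block the median was 0.01, with 20 positive and 17 negative differences and 0 calls; with 1 residual degree of freedom, the interval of 1 of 37 genes lay within 2-fold. Counts of intervals within 2-fold were added after seeing the data. Groups of 3 and 2 arrays are too small to test a single array as an outlier.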
